A study of Mus musculus with 6 samples.

Results

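The mitochondrial carriers of the Slc25 family, apart from the adenine nucleotide carriers and the carriers of the malate-aspartate shuttle, were described in 4T1 WT and 4T1 GPD2 KO cells. The members were every gene of the processed table whose symbol is Slc25a followed by a number, with Slc25a4, Slc25a5, Slc25a11, Slc25a12 and Slc25a13 left out. This gave 35 of 12534 genes. The rule itself used the gene names alone and no measured value, but it was chosen with earlier results of these data known. All 35 members passed the filter on low counts. The family genes Slc25a2, Slc25a18, Slc25a21, Slc25a31, Slc25a34, Slc25a41 and Slc25a54 were not analysed here.

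4T1 is a mammary carcinoma line of the BALB/c mouse strain, and RNA was sequenced from 3 WT samples and from 3 GPD2 KO samples with the genotype Gpd2 -/-. Gpd2 encodes the mitochondrial glycerol-3-phosphate dehydrogenase, which passes electrons from glycerol-3-phosphate to the respiratory chain. The KO cells were obtained with a guide RNA against Gpd2 and Cas9, by puromycin selection and outgrowth from single cells, and the sequenced KO line was 1 clone. The deletion and the history of that clone therefore cannot be told apart, and p-values set the genotypes against the spread among 3 samples each, which may be technical. For the WT samples the treatment label names the guide RNA and Cas9 vector as well, so whether WT cells met the vector is not known. No label gives a separate culture, day or batch for any sample. The total counts were 51186527 to 59846170 per library. SE is the standard error of a log2 fold change and SD the standard deviation over samples. Gpd2 itself was at 51.9 ± 0.281 TPM (SD, n = 3) in WT and 9.91 ± 0.0348 TPM (SD, n = 3) in KO cells. TPM is a level scaled to library size and gene length.

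Of 8 epithelial markers fixed for this check, Krt8 and Krt18 were measured, and their summed level was 1160 to 1215 CPM (counts scaled to library size) in WT and 686 to 724 CPM in KO libraries. Epcam and Cdh1, the defining adhesion genes of that list, were not analysed here. Of 7 fibroblast markers, Col1a1 and Pdgfra were measured and summed to 114.9 to 115.5 CPM in WT and 55.5 to 63.0 CPM in KO libraries. Of 6 macrophage markers, 3 were measured, and their summed level, mostly Cd68, was 13.6 to 15.3 CPM in WT and 9.93 to 10.7 CPM in KO libraries, while the lymphocyte, adipocyte and muscle lists each held 1 measured gene at under 1 CPM and the endothelial list none. The 4 keratin and fibroblast genes, Cd68 and Lyz2 were called lower in KO cells and the lymphocyte gene Cd79a higher, while Itgam and the adipocyte and muscle genes gave no call. The part of the called markers in the values of the carriers was not tested. A lower level in such bulk RNA also cannot be told apart as fewer cells with the transcript or less transcript per cell.

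Slc25 proteins are nuclear-encoded and are nearly all inserted in the inner mitochondrial membrane, where each exchanges or takes up a narrow set of solutes between the cytosol and the matrix. They carry phosphate, nucleotides, carboxylates, amino acids, cofactors and iron, so that synthesis and breakdown in the matrix depend on them, and a few members lie in peroxisomes or in the outer membrane. After synthesis in the cytosol a carrier passes through the TOM pore and is guided by small TIM chaperones to the TIM22 complex, which inserts it into the inner membrane.

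As a family, the carriers took up similar shares of the transcriptome in both genotypes, with overlapping libraries, while the order of single members shifted. The 35 members summed to 1823, 1807 and 1860.1 TPM in the WT libraries and to 1881, 1853 and 1894 TPM in the KO libraries. These sums overlapped between the genotypes only in that WT replicate 3 lay above GPD2 KO replicate 2. In counts the members held 0.188% to 0.195% of each library. Slc25a3, the phosphate carrier, alone gave 33.3% to 35.9% of the summed carrier TPM, and the 5 members with the highest level gave 65.4% to 67.5%.

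In WT cells 3 members exceeded 100 TPM, namely Slc25a3, Slc25a39 and Slc25a24, whereas 13 lay under 10 TPM and 3 (Slc25a47, Slc25a53 and Slc25a35) under 2 TPM. Along the WT order of levels, 13 of 34 neighbouring pairs overlapped in their libraries and so did not differ beyond their spread. Slc25a30, Slc25a1, Slc25a32 and Slc25a17, in places 5 to 8, formed 1 such run, with mean levels of 57.1 to 57.5 TPM. In KO cells the first 4 places were held by the same members, while Slc25a30 moved from place 5 to place 16, Slc25a25 from place 17 to place 10, Slc25a33 from place 16 to place 12 and Slc25a23 from place 26 to place 34 by mean TPM.

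**Figure D1:**
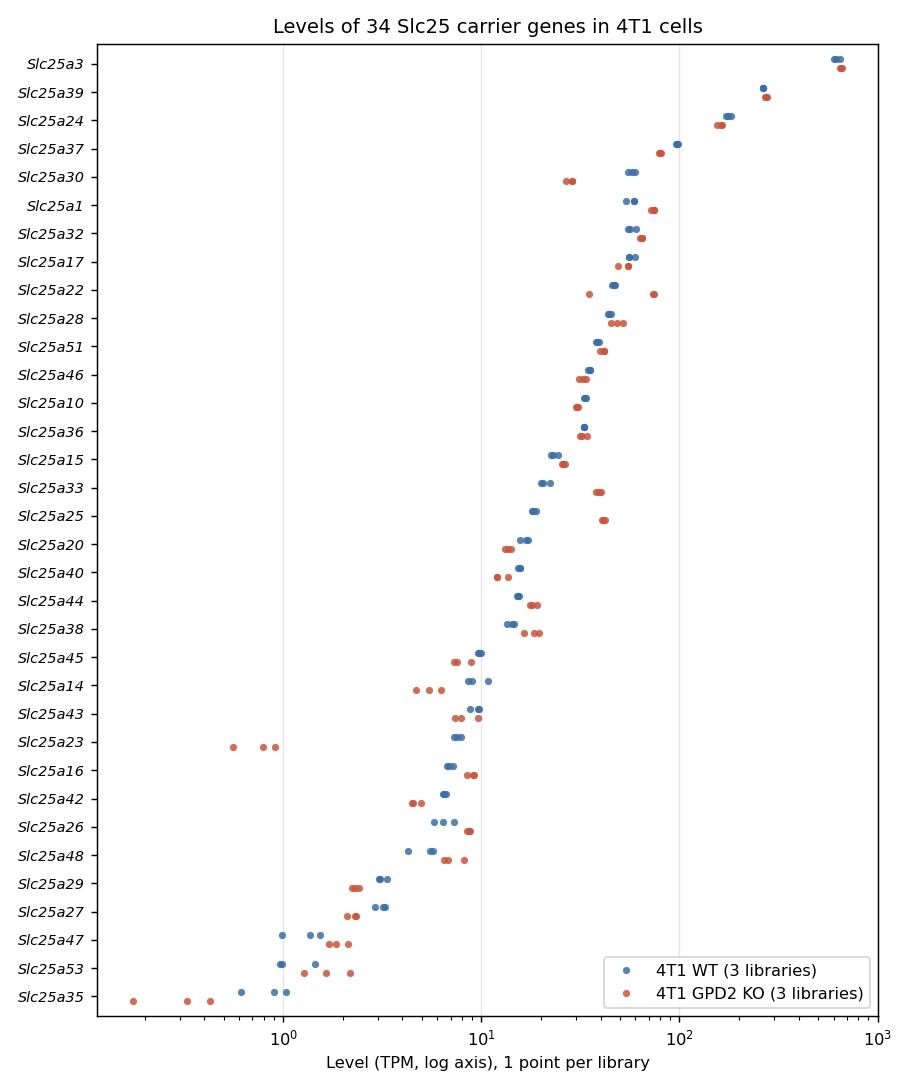
Level of 34 of the 35 carrier genes in TPM on a log axis, 1 point per library, with 3 WT libraries in blue and 3 GPD2 KO libraries in red, ordered by the mean in WT cells. Levels ran from 621 TPM for Slc25a3 to 0.852 TPM for Slc25a35 in WT cells, and Slc25a23, at 7.55 TPM in WT and 0.751 TPM in KO cells, shows the widest gap between the genotypes.

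Of the 35 members, 13 were called higher in GPD2 KO cells and 15 lower, while 7 gave no call, with calls made where the adjusted p was under 0.05 (edgeR's quasi-likelihood test with Benjamini-Hochberg adjustment over all 12106 tested genes). Among all tested genes 33.5% were called higher and 33.3% lower, so most genes of any kind passed this test and the members' counts lie close to that background. With a fold change of at least 1.5 required as well, 3 members were higher and 4 were lower, against 19.7% of all tested genes in either direction. By the thresholds of the study, a fold of 2 with an unadjusted exact test p under 0.05, 4 members were called (Slc25a23, Slc25a25, Slc25a30 and Slc25a35), where 8.64% of all tested genes were. The CPM values of the genotypes did not overlap for 31 members, 15 above and 16 below WT, against 71.1% of tested genes. The median log2 fold change of the members was -0.01 and that of all genes was -0.000807, and the median size of the change regardless of direction was 0.36 for the members and 0.29 for all genes.

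**Figure D2:**
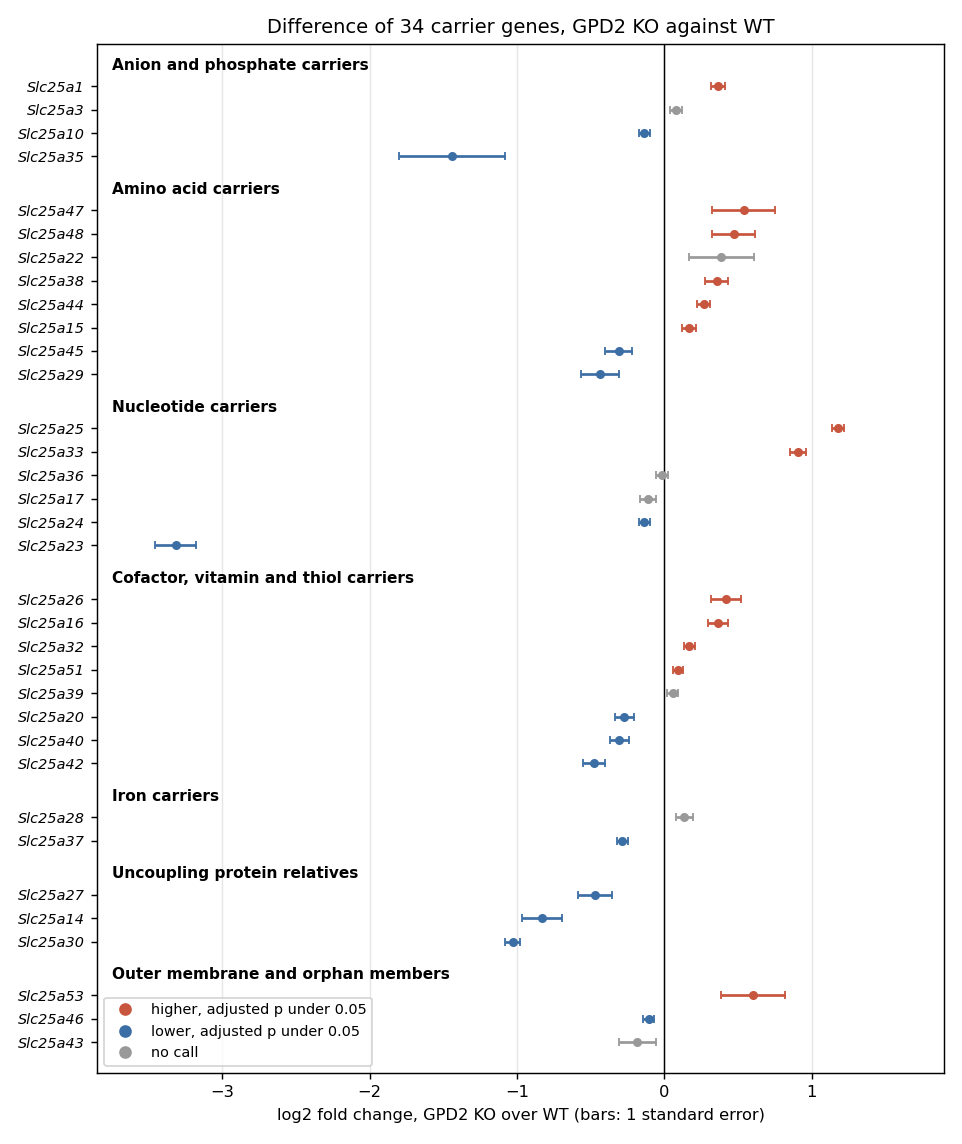
Log2 fold change of 34 of the 35 carrier genes, GPD2 KO over WT, from the edgeR fit, with bars of 1 standard error. Genes are grouped by known or assigned substrate or by relationship, and coloured by the call at an adjusted p under 0.05. The members ran from -3.32 for Slc25a23 to 1.18 for Slc25a25, and the 3 uncoupling protein relatives all lie below 0.

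Nucleotide carriers held both ends of this range. Of the 6 measured members 2 rose and 2 fell, where 33.5% and 33.3% of all tested genes did. The other 2 did not pass the test. Slc25a23, Slc25a24 and Slc25a25 are the ATP-Mg/phosphate carriers, calcium-regulated proteins that exchange ATP-Mg for phosphate and so set the adenine nucleotide content of the matrix. Slc25a23 had 622, 733 and 627 counts in the WT libraries and 72, 67 and 49 counts in the KO libraries. Every KO library was far below every WT library. Its mean level was 11.7 ± 0.451 CPM in WT and 1.18 ± 0.270 CPM in KO cells (SD, n = 3), and it fell by 3.32 on the log2 scale (SE 0.141, adjusted p = 6.66e-08, edgeR), which is 9.97-fold.

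Slc25a25 stood at 27.6, 28.2 and 27.0 CPM in the WT libraries and at 63.0, 62.4 and 61.7 CPM in the KO libraries. The genotypes were separated by more than the whole WT level. It rose at a log2 fold change of 1.18 (SE 0.0400, adjusted p = 1.60e-08, edgeR). Slc25a25 shares 989 bp of its locus with Naif1 on the opposite strand, and Naif1 was at 5.49 CPM in WT and 5.34 CPM in KO cells. Slc25a24, the most abundant of the 3, was at 176.7, 172.1 and 181.2 TPM in WT and at 162.9, 155.3 and 163.7 TPM in KO libraries. Its KO values all lay below the WT values by a small margin, with a log2 fold change of -0.14 (SE 0.0374, adjusted p = 0.00948, edgeR).

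Added up, the 3 ATP-Mg/phosphate carriers came to the same level in both genotypes within error, 202.5 ± 3.97 TPM in WT and 202.9 ± 4.85 TPM in KO cells (SD, n = 3), although the make-up differed. Slc25a25 gave 9.04 ± 0.387% of that sum in WT and 20.4 ± 0.468% in KO cells. Slc25a24 gave 87.2 ± 0.582% and 79.2 ± 0.541%, and Slc25a23 gave 3.73 ± 0.211% and 0.371 ± 0.0868%. For each of the 3 shares the KO libraries lay apart from the WT libraries.

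Slc25a33 and Slc25a36 carry pyrimidine nucleotides into mitochondria. Slc25a33 had 17.8, 17.2 and 19.4 CPM in the WT libraries and 34.4, 33.4 and 34.0 CPM in the KO libraries. All KO values were well above all WT values. It rose at a log2 fold change of 0.91 (SE 0.0530, adjusted p = 5.10e-07, edgeR). Slc25a36 did not pass the test, at 46.6 ± 0.141 CPM in WT and 46.1 ± 1.36 CPM in KO cells (SD, n = 3) with a log2 fold change of -0.01, and its genotypes overlapped. The sum of both was 53.9 ± 1.24 TPM in WT and 71.8 ± 2.26 TPM in KO cells, and the share of Slc25a33 in it was 38.8 ± 1.41% in WT and 54.5 ± 0.400% in KO cells (SD, n = 3). Slc25a17, a peroxisomal carrier of coenzyme A and other nucleotide cofactors, showed a log2 fold change of -0.11 (SE 0.0543, adjusted p = 0.0982, edgeR) at 43.9 CPM in WT and 40.7 CPM in KO cells.

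**Figure D3:**
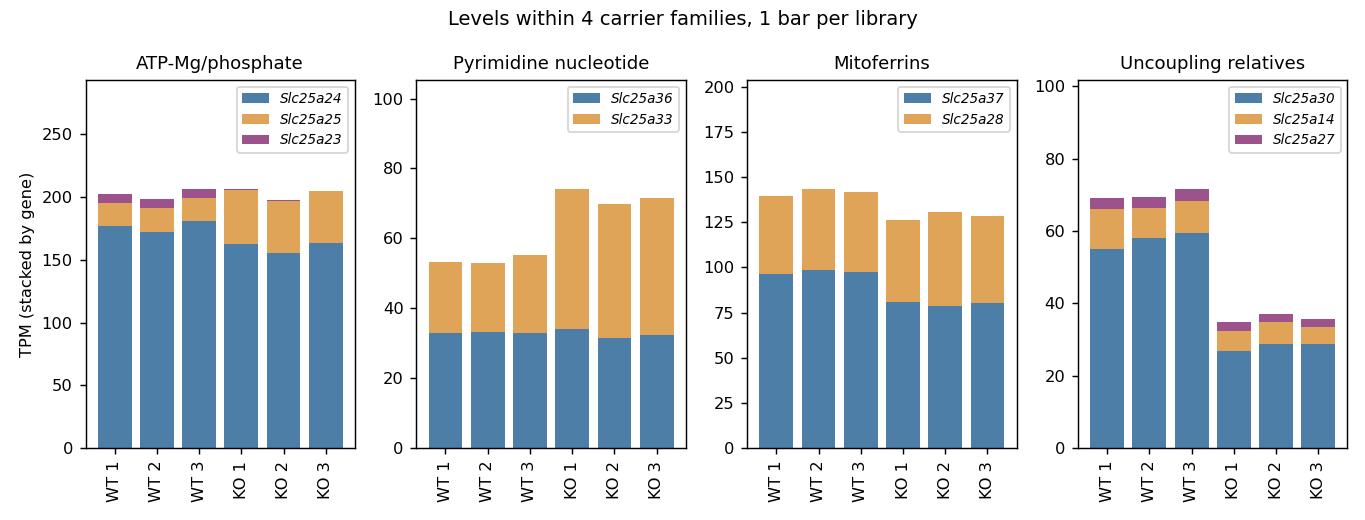
Summed TPM of 4 carrier families, 1 stacked bar per library, with each gene in its own colour. The ATP-Mg/phosphate carriers summed to 202.5 TPM in WT and 202.9 TPM in KO cells with a larger Slc25a25 layer in KO, while the sum of the uncoupling protein relatives was 70.1 TPM in WT and 35.8 TPM in KO cells.

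The promoter windows of Slc25a23, Slc25a25 and Slc25a33 are shown because these genes had the deepest fall and the highest rises among the members. Each is a RefSeq window of the GRCm38.p6 assembly, 300 bases long, from 250 bases before to 50 bases after a start site, taken where a gene has several windows as the farthest 5′ of them, and all 3 genes are on the minus strand. Capitals mark matches to the CCAAT box (letters CCAAT, read on both strands, so that ATTGG is a match on the opposite strand) and to the E-box (letters CACGTG). Positions count from the start base of the window shown as 0. The annotated span of Slc25a23 reaches beyond that base in the 5′ direction, to position 57059909, as does that of Slc25a14 described further on. The Slc25a23 window, at chr17:57059814-57060113, has 1 CCAAT match at -211 to -207. The Slc25a25 window, at chr2:32451421-32451720, has 3, at -188 to -184, -146 to -142 and -54 to -50. The Slc25a33 window, at chr4:149774218-149774517, has 1 CCAAT match at -81 to -77 and an E-box match at -8 to -3.
Slc25a23: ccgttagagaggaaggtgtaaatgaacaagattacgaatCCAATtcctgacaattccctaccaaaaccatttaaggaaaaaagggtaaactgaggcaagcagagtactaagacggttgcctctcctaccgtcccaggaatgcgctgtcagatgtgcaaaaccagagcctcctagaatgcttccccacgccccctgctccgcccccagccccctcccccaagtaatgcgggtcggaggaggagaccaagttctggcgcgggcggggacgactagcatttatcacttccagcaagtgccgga
Slc25a25: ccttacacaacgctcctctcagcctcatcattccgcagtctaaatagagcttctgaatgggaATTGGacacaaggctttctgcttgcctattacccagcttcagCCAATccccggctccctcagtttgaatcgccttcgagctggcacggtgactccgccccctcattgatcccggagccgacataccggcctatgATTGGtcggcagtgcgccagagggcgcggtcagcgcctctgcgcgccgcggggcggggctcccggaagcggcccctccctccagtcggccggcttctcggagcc
Slc25a33: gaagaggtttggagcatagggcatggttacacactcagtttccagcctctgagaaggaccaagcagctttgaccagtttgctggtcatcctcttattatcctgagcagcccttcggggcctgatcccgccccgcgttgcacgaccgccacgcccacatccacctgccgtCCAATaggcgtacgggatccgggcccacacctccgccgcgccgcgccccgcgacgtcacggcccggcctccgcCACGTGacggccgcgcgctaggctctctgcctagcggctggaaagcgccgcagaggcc

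The relatives of the uncoupling proteins are a group of 3 measured members, and all 3 fell, where 33.3% of all tested genes were called lower. Slc25a30, Slc25a14 and Slc25a27 encode UCP6, UCP5 and UCP4, which resemble the thermogenic uncoupling protein UCP1 in sequence. Slc25a30 was at 43.5, 45.3 and 46.9 CPM in the WT libraries and at 20.997, 22.8 and 22.6 CPM in the KO libraries. No library of one genotype came near the other. It fell by 1.03 on the log2 scale (SE 0.0499, adjusted p = 1.58e-07, edgeR). Without GPD2 KO replicate 1 its log2 fold change was -0.999 and it fell just short of a fold of 2.

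Slc25a14 had 7.25, 5.70 and 6.97 CPM in the WT libraries and 3.62, 4.31 and 3.25 CPM in the KO libraries. The genotypes did not overlap, with the lowest WT library above the highest KO library. It fell by 0.83 on the log2 scale (SE 0.136, adjusted p = 0.000443, edgeR). Slc25a27 was lower by a smaller amount, at 3.89 ± 0.262 CPM in WT and 2.80 ± 0.128 CPM in KO cells (SD, n = 3), with a log2 fold change of -0.47 (adjusted p = 0.00538, edgeR). The group's median log2 fold change was -0.83, against -0.000807 for all genes. Its summed level was 70.1 ± 1.41 TPM in WT and 35.8 ± 1.19 TPM in KO cells (SD, n = 3), of which Slc25a30 gave 82.0 ± 2.08% and 78.4 ± 1.68%. Ucp2, the uncoupling protein named in the list of other inner membrane transporters, did not pass the test, at 188 CPM in WT and 203 CPM in KO cells.

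The windows of Slc25a30 and Slc25a14 are shown because these members of 1 group both fell by at least 1.5-fold. They have the same source, length and capitals as those above. The Slc25a30 window, at chr14:75786988-75787287 on the minus strand, has 1 CCAAT match at -52 to -48. The Slc25a14 window, at chrX:48623198-48623497 on the plus strand, has no CCAAT match and an E-box match at -54 to -49. The bases are 66.7% G or C in the Slc25a30 window and 48.3% in that of Slc25a14, against a median of 52.7% over all windows.
Slc25a30: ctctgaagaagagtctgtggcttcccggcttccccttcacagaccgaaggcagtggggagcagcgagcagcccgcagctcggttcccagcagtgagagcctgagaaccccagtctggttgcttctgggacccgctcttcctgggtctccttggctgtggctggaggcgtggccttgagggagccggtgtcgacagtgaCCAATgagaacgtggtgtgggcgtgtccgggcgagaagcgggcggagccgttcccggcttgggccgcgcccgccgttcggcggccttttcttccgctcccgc
Slc25a14: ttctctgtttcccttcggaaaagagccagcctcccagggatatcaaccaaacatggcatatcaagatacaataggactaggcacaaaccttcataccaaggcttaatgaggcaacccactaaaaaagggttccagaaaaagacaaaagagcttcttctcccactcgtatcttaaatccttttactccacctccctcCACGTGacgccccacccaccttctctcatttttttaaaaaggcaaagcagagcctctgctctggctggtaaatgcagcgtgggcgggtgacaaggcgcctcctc

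Of the 35 members 26 matched at least 1 RefSeq promoter window, with 35 windows in all, and 9 matched none. A CCAAT match was found in 17 of the 35 member windows, which belong to 14 members, and in 37.4% of all 32851 windows. An E-box match was found in 6 of the 35 member windows, those of Slc25a1, Slc25a14, Slc25a15, Slc25a33 and Slc25a36, and in 7.15% of all windows. The letters TGATGNAA, the core of an element read by the stress factor ATF4, were found in no member window and in 3.97% of all windows. The core of the interferon-stimulated response element was found in 2 member windows (Slc25a15 and Slc25a22) and in 3.44% of all windows, and the NRF1 site in 1 member window (Slc25a3) and in 4.60% of all windows. These are letter matches on either strand and not measured binding.

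**Figure D4:**
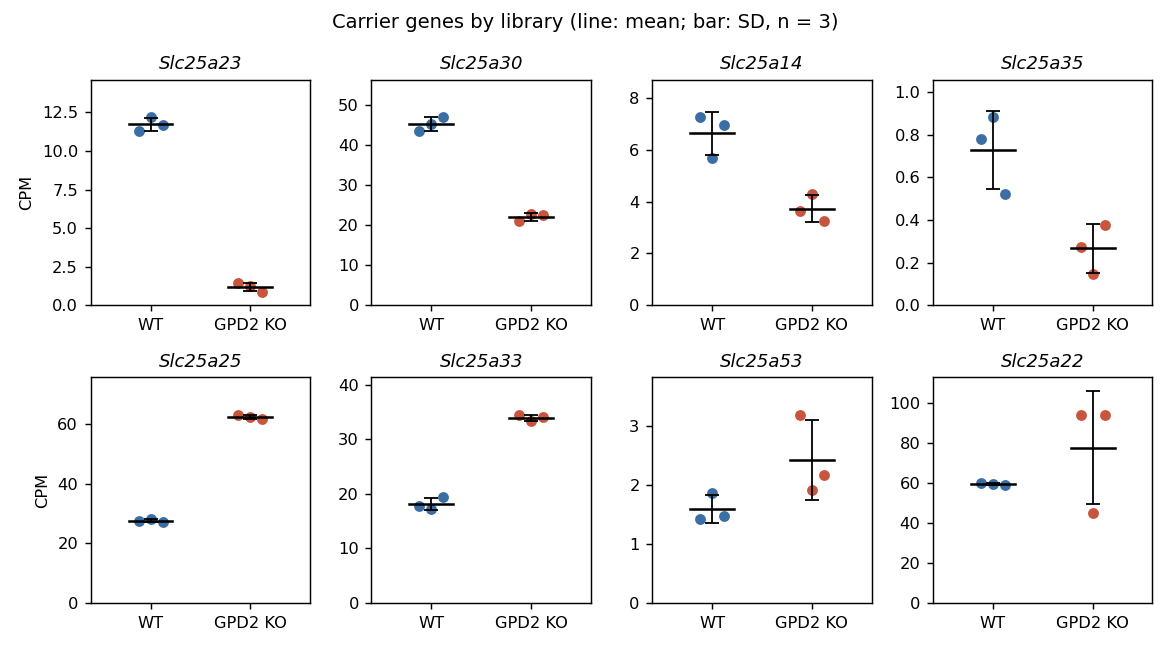
CPM of 8 carrier genes by library, with 3 WT libraries in blue and 3 GPD2 KO libraries in red, horizontal lines at the mean and bars of 1 SD (n = 3). Slc25a23, Slc25a30, Slc25a14 and Slc25a35 were lower in every KO library, Slc25a25, Slc25a33 and Slc25a53 were higher in every KO library, and Slc25a22 was at 93.9, 45.2 and 93.8 CPM in KO libraries around WT values of 58.8 to 59.8 CPM.

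Among the 4 anion and phosphate carriers 1 rose, 2 fell and 1 did not pass the test. Of all tested genes 33.5% rose and 33.3% fell. Slc25a3, which brings in the phosphate used by ATP synthase and also carries copper, was at 618.7, 602.0 and 643.6 TPM in WT and at 642.9, 665.3 and 657.2 TPM in KO libraries. The genotypes overlapped slightly, and the log2 fold change came to 0.08 (SE 0.0381, adjusted p = 0.0954, edgeR). Without WT replicate 3 its log2 fold change was 0.11 and passed the test.

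Slc25a1, the citrate carrier that exports citrate for fatty acid and sterol synthesis, had 54.0, 58.8 and 59.0 TPM in WT and 74.9, 74.1 and 72.0 TPM in KO libraries. Every KO library lay above every WT library, and it rose at a log2 fold change of 0.37 (SE 0.0465, adjusted p = 8.33e-05, edgeR). Slc25a10, the dicarboxylate carrier, which exchanges malate or succinate for phosphate, fell from 61.8 to 56.2 CPM, or by 0.14 as a log2 difference. Slc25a35, an orphan placed here by sequence, was at the lower end of detection, with 43, 53 and 28 counts in WT and 14, 8 and 21 counts in KO libraries. Its genotypes did not overlap, and it fell by 1.44 on the log2 scale (SE 0.362, adjusted p = 0.00574, edgeR), the widest standard error of any member. On a log2(TPM + 1) scale, which compresses low values, its difference was -0.50.

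Of the 8 members grouped here as amino acid carriers 5 were called higher and 2 lower, while 1 gave no call. No transport was measured, and the group also takes in Slc25a45, Slc25a47 and Slc25a48, the last of which has been linked to choline. The calls on Slc25a47 and Slc25a48 did not hold under every alternative. Among all tested genes 33.5% were called higher and 33.3% lower. All differences of the 8 carriers stayed under 1.5-fold. Their median log2 fold change was 0.31, against -0.000807 for all genes. Slc25a38, the glycine carrier needed for the first step of heme synthesis, rose from 10.3 ± 0.410 to 13.2 ± 1.05 CPM (SD, n = 3), a log2 fold change of 0.36. Slc25a44, a carrier of branched-chain amino acids, rose by 0.27 on the log2 scale, and Slc25a15, the ornithine carrier of the urea cycle, rose by 0.17. Slc25a29, a carrier of basic amino acids, and Slc25a45, which is placed in this group by sequence, fell by 0.44 and 0.31 on the log2 scale.

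Slc25a48, which has been linked to choline import, was at 3.83, 3.92 and 2.96 CPM in WT and at 4.64, 5.72 and 4.50 CPM in KO libraries. It was called higher with a log2 fold change of 0.47 (adjusted p = 0.0166, edgeR), and the call was lost without WT replicate 3 and without GPD2 KO replicate 2, at 0.35 in both cases. Slc25a47, a carrier known mainly from liver, was at 0.725, 0.997 and 1.14 CPM in WT and at 1.23, 1.37 and 1.55 CPM in KO libraries. Its groups were adjacent without overlap, and its call (log2 fold change 0.54, adjusted p = 0.0479, edgeR) was lost when WT replicate 1, WT replicate 2 or any 1 KO replicate was left out, at 0.38 to 0.61, as well as in DESeq2 (adjusted p = 0.0746) and without the filter on low counts (adjusted p = 0.0541). Slc25a47 and Slc25a29 lie close together on chromosome 12 in the GRCm38.p6 assembly, at 108849833 to 108856815 and 108825878 to 108835876, on opposite strands, and the calls on them have opposite directions.

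The glutamate carrier Slc25a22 did not give replicate libraries that agreed. Its counts were 3298, 3591 and 3153 in WT and 4799, 2433 and 5219 in KO libraries. KO replicates 1 and 3 lay above all WT libraries and KO replicate 2 lay below them, at 74.1, 34.9 and 74.0 TPM against 45.8 to 47.2 TPM in WT. The log2 fold change came to 0.39 (SE 0.222, adjusted p = 0.151, edgeR) over all libraries and 0.65 (adjusted p = 2.04e-06) without GPD2 KO replicate 2. Slc25a22 was the 1 member for which a library stood at least 1.5-fold below the other libraries of its genotype while those lay within 1.2-fold of each other. GPD2 KO replicate 2 did so for 18 of 9015 genes whose mean was 10 CPM or more, and the other libraries for 11 to 28.

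The 9 carriers of cofactors, vitamins and thiols were split, with 4 higher, 4 lower and 1 not passing, and none reached 1.5-fold. Among all tested genes 33.5% were higher and 33.3% lower. Slc25a39, which brings glutathione into mitochondria, was the second most abundant member, at 263.4, 264.2 and 264.8 TPM in WT and 269.7, 277.1 and 274.9 TPM in KO libraries. Its KO libraries lay just above the WT libraries, with a log2 fold change of 0.05 that did not pass the test (SE 0.0354, adjusted p = 0.200, edgeR). Its paralog Slc25a40 fell from 20.2 ± 0.187 to 16.3 ± 1.11 CPM (SD, n = 3), a log2 fold change of -0.31, and its share of the summed TPM of both was 5.55 ± 0.0547% in WT and 4.39 ± 0.382% in KO cells.

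Slc25a26, the S-adenosylmethionine carrier, rose from 5.75 to 7.67 CPM, a log2 fold change of 0.42. It shares 144 bp with Lrig1 on the opposite strand, and Lrig1, at 235 CPM in WT and 298 CPM in KO cells, was higher as well, by 0.34, so the part of shared reads in the Slc25a26 value was not tested. Slc25a16, linked to coenzyme A in the matrix, rose by 0.37, and Slc25a32, the carrier of folate and FAD, by 0.17. Slc25a42, the carrier of coenzyme A, fell from 9.51 ± 0.115 to 6.83 ± 0.324 CPM (SD, n = 3), a log2 fold change of -0.48. Slc25a20, the carnitine-acylcarnitine carrier of fatty acid oxidation, fell by 0.27. Slc25a51, the NAD carrier, showed a log2 fold change of 0.09 (adjusted p = 0.0312, edgeR), and its call was lost without WT replicate 1 (0.09), WT replicate 2 (0.08), GPD2 KO replicate 1 (0.08) or GPD2 KO replicate 3 (0.08), in DESeq2 (adjusted p = 0.0622) and in limma on log2(TPM + 1) or log2(TPM + 0.1) (adjusted p = 0.0691 and 0.0674).

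The mitoferrins import iron for heme and iron-sulfur clusters. Slc25a37, mitoferrin 1, was at 96.1, 98.6 and 97.4 TPM in WT and at 80.6, 78.6 and 80.2 TPM in KO libraries. The genotypes were clearly apart, and it fell by 0.29 on the log2 scale (SE 0.0346, adjusted p = 6.12e-05, edgeR). Slc25a28, mitoferrin 2, showed a log2 fold change of 0.13 (SE 0.0569, adjusted p = 0.0600, edgeR), with each KO library above each WT library, and passed the test without GPD2 KO replicate 1 at 0.18. The mitoferrin sum was 141.6 ± 1.89 TPM in WT and 128.3 ± 2.28 TPM in KO cells, and the share of Slc25a28 in it was 31.2 ± 0.0641% and 37.8 ± 1.92% (SD, n = 3).

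Of the 3 members of the outer membrane or without a known substrate, 1 was called higher, 1 lower and 1 did not pass. Among all tested genes 33.5% were called higher and 33.3% lower. Slc25a53, an orphan, was at 1.43, 1.86 and 1.47 CPM in WT and at 3.19, 1.91 and 2.18 CPM in KO libraries. KO replicate 1 was the highest and KO replicate 2 lay just above the highest WT library, and on TPM the genotypes overlapped. The call (log2 fold change 0.60, SE 0.217, adjusted p = 0.0326, edgeR) was lost without WT replicate 1 (0.53), WT replicate 3 (0.55) or GPD2 KO replicate 1 (0.36). With the replicate number as a block the log2 fold change was 0.59 (adjusted p = 0.0633) and was not called, nor was it in limma on log2(TPM + 1) or log2(TPM + 0.1) (adjusted p = 0.0642 and 0.0663). Slc25a46, an outer membrane protein that acts in mitochondrial fusion and lipid traffic, showed a log2 fold change of -0.11 (adjusted p = 0.0318, edgeR) at 70.7 CPM in WT and 65.6 CPM in KO cells, a call lost without any 1 library other than GPD2 KO replicate 3, at -0.09 to -0.11, and in both limma fits on TPM (adjusted p = 0.0543 and 0.0529). Slc25a43, an orphan, showed a log2 fold change of -0.18 that did not pass the test, and without GPD2 KO replicate 2 it was -0.31 and passed.

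The machinery that brings carriers to the inner membrane was measured through a list of 19 genes. Of these, 12 were higher and 2 lower, while 5 gave no call, with 33.5% and 33.3% of all tested genes called in those directions, and the median log2 fold change was 0.34. Timm8a1, a small TIM chaperone of the intermembrane space, rose from 67.3 ± 3.85 to 123.0 ± 6.05 CPM (log2 fold change 0.87), and Timm10, another of these chaperones, rose from 21.05 ± 1.05 to 34.8 ± 0.699 CPM (0.73). Tomm40, the pore of the outer membrane, rose from 178 ± 4.22 to 273 ± 13.9 CPM (SD, n = 3; 0.61). The 2 genes that fell, named after their values were seen, were Timm22, the insertion pore for carriers, by 0.50 on the log2 scale, and Hsp90ab1, a cytosolic chaperone, by 0.35.

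Other transporters of the inner membrane, a list of 35 genes that holds the 5 left-out carriers, gave 11 higher, 11 lower and 13 not passing. Among all tested genes 33.5% were higher and 33.3% lower. The genes of this list had a median log2 fold change of -0.05. Those called at 1.5-fold or more included Aqp8, an aquaporin (log2 fold change 3.32, from 0.194 to 1.96 CPM), Micu2, a regulator of the calcium uniporter (-0.75), Slc41a3, a magnesium transporter (-2.07), and Slc25a11, the oxoglutarate carrier (-0.66). For the other left-out carriers the log2 fold change was -0.46 for Slc25a4, -0.16 for Slc25a5, 0.23 for Slc25a12 and 0.02 for Slc25a13.

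**Figure D5:**
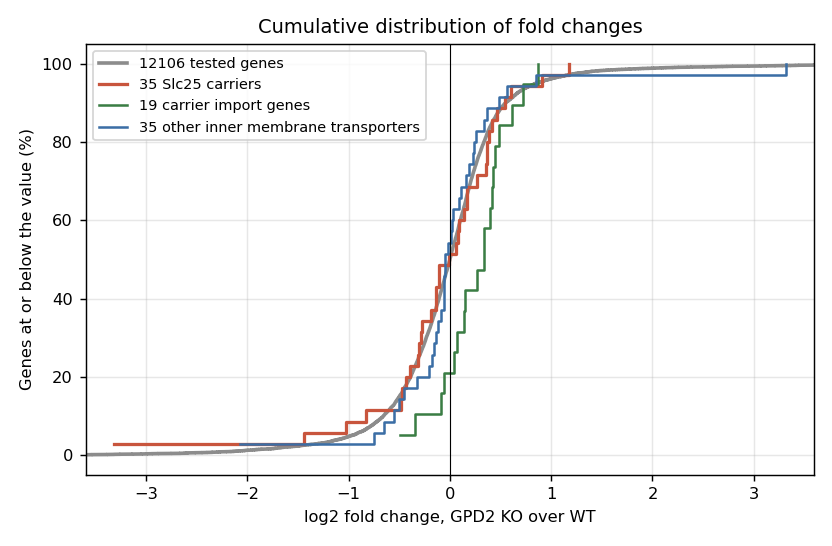
Cumulative share of genes (percent) at or below each log2 fold change, GPD2 KO over WT, for all 12106 tested genes, the 35 Slc25 carriers, 19 carrier import genes and 35 other inner membrane transporters. The carriers run from -3.32 to 1.18 with a median of -0.01, and the import genes have a median of 0.34.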

How the data were processed

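Libraries of 3 WT and 3 GPD2 KO samples were made with a stranded mRNA kit and read in paired ends. Per the study's methods, the authors used Trimmomatic 0.38 for trimming, HISAT2 2.1.0 for alignment (mm10) and StringTie 1.3.4d for transcript assembly. The deposited table holds unnormalized read counts per gene, which were tested here, and the authors' TPM values for each library, which were used for levels. It lists only genes with a count of at least 1 in every library. Its FPKM and log2 columns, and the authors' comparison columns (fold change, mean log CPM, p-value and adjusted p-value), were not used. How strand was treated in counting is not given in the sources, so reads of overlapping antisense genes may be mixed.

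Groups follow the genotype label. Counts were scaled by TMM (factors 0.992 to 1.01) and filtered with filterByExpr (minimum count 10) in R 4.3.3 with edgeR 4.0.16, which kept 12106 of 12534. Calls came from its quasi-likelihood test, with p-values adjusted over these genes by Benjamini-Hochberg, at 0.05, and standard errors were derived from its F statistic. CPM values are counts over TMM-scaled library totals. edgeR's exact test gave the thresholds of the study. Alternatives used DESeq2 1.42.0 and limma 3.58.1 on log2(TPM + 1) and log2(TPM + 0.1). The workflow was tested on simulated data.

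Full statistics were given by rule for members called at 1.5-fold or more and for the 5 members with the highest mean TPM, the other members were given by group, and genes of the other lists were named when called at 1.5-fold or more. Members, groups and lists were chosen with earlier results of these data known. Promoter windows were printed for members called at 1.5-fold or more with a WT level of at least 2 TPM and a window. Every pair of replicates differed beyond counting noise, so all 6 libraries were kept as separate. Some genes that the rule takes are counted but not reported by name.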

Additional observations from a re-analysis of the deposited data

How the results depend on the processing

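No result changed direction under any alternative. When each library was left out in turn, the members called higher numbered 10 to 12 (13 with all libraries), those called lower 14 to 15 (15), those past the thresholds of the study 3 to 4 (4), all called genes 7433 to 7783 (8085), import genes 13 to 15 (14) and other transporters 20 to 22 (22). DESeq2 called 11 members higher and 15 lower, and limma on log2 TPM 11 and 14. Requiring a fold of 1.5 left 3 members higher, 4 lower and 2390 genes of the whole table, by construction.

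Whether the replicate numbers pair the samples is not known from the labels. Deviations of same-numbered samples correlated at 0.16, 0.12 and -0.04, and those of differently numbered samples at -0.30 to 0.19. With 3 samples per genotype these values cannot decide it. With the replicate block 12 members were higher, 15 lower and 7974 genes were called (14 import genes and 21 other transporters), and of the members the call on Slc25a53 alone was lost. Sample-to-sample spread at low counts limits Slc25a35, Slc25a47 and Slc25a53 most, and a gene with no count in any 1 library is not in the table, so silent members cannot be seen. The cause of the single call changes was not tested.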
